A study of Mus musculus with 2 samples.

Results

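The genes described here are the 10 mouse genes that write, erase or help to copy DNA methylation: Uhrf1, Uhrf2, Dnmt1, Dnmt3a, Dnmt3b, Dnmt3l, Hells, Tet1, Tet2 and Tet3. They were chosen by name, as 10 of the 32101 annotated genes that are not pseudogenes, and the region of each ran from 5 kb upstream of its 5′ end to the end of the gene. Of the 2654195 CpG cytosines with at least 5 reads in both libraries, called shared CpGs here, 1775 lay in these regions. Each gene held between 41 (Hells) and 290 (Tet1) of them. A level is the percentage of reads with a methylated cytosine, and a change is KI minus WT in percentage points.

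CpG methylation is copied after replication and is written anew by separate enzymes. Uhrf1 binds hemimethylated CpGs behind the replication fork and also histone H3 methylated at lysine 9, and it helps to bring in Dnmt1, the maintenance methyltransferase. Dnmt3a and Dnmt3b methylate DNA that was unmethylated, Dnmt3l is their catalytically inactive partner in germ cells, and Hells is a chromatin remodeller needed for methylation of repeats. Tet1, Tet2 and Tet3 oxidize 5-methylcytosine, which opens a way to remove it. Bisulfite reads do not tell 5-methylcytosine from the 5-hydroxymethylcytosine that the Tet enzymes make.

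The study asked how much DNA methylation depends on the binding of Uhrf1 to methylated histone H3. Liver DNA of male mice, 3 months old, of the strain C57BL/6 by the labels (the methods print the background as C57BL/C), was measured by reduced representation bisulfite sequencing (RRBS), in which DNA is cut at CCGG sites and the short fragments are converted and sequenced. The WT library is a pool of 3 wild-type mice, and the KI library is a pool of 3 mice with the Uhrf1 YP187/188AA mutation, by which codons 187 and 188 encode alanine. There is thus 1 library per genotype and no replicate: every test below compares these libraries, not the genotypes. The KI sample is titled KI but has a knock out in its genotype field, and it is treated here as the knock-in. The mutation was made in R1 embryonic stem cells, which are not of C57BL/6 origin, with a vector that spanned exon 3 to exon 11 of Uhrf1 and carried an FRT-flanked Neo gene before exon 4. Chimeric mice were then bred to C57BL/6. Whether Neo was later removed is not given in the sources used here. A difference of strain around Uhrf1 and one of genotype cannot be told apart in these libraries.

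The WT library listed 7231934 CpGs with a coverage of 192144002 summed over CpGs, and the KI library listed 6452685 with 173109895. Such sums, here and below, count a read again at each CpG it covers. The shared CpGs of the 10 genes were read a median of 34 times (WT) and 35 times (KI). No CpG of these genes had 20 or more reads in one library and none in the other. Such CpGs were rare over the genome too. Of 1840553 CpGs with at least 20 reads in WT, 801 had none in KI, and of 1882462 with at least 20 in KI, 1680 had none in WT. Their absence here thus does not set these genes apart. Of the markers used to check the tissue, 3 of 10 hepatocyte genes had a measured promoter. Their median level was 39.6% (WT) and 26.0% (KI), and 2 of them were called lower in KI by the rule given below, under which 7.45% of all promoters were called lower. The 3 measured of 6 blood and Kupffer cell genes stood at a median of 66.7% and 65.2%, and 1 was called lower. For the other cell types, the median promoter levels in WT and KI were 71.3% and 73.5% for 2 endothelial genes, 17.8% and 17.2% for 3 stellate cell genes, and 0.428% and 0.851% for the cholangiocyte gene measured. At the bodies of these marker genes, the calls were lower in 3 of 5 hepatocyte, 3 of 4 blood and Kupffer cell, 3 of 3 endothelial, 2 of 3 cholangiocyte and 0 of 2 stellate cell genes, beside 34.8% of all bodies. The median body changes were -4.26 points for hepatocyte, -6.87 for blood and Kupffer cell, -3.09 for endothelial, -1.88 for cholangiocyte and -2.98 for stellate cell genes. In whole liver, fewer cells of a type and a lower level within each cell cannot be told apart, and the part of cell type in the results below was not tested.

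Over all their shared CpGs, the 10 genes were almost as methylated in KI as in WT. They averaged 43.0% (WT) and 42.7% (KI), which is a change of -0.285 points. All shared CpGs of the genome averaged 45.6% and 42.6%, with a change of -2.99 points. Among the members' CpGs, 33.4% were lower in KI and 31.6% higher, beside 45.9% and 24.6% over the genome. By gene, the mean change was below 0 in 5 genes and above 0 in the other 5, from -3.83 points in Dnmt3l to 1.92 points in Uhrf2. No CpG of these genes went from above 70% in WT to under 20% in KI, and none went the other way. The paper reports that such falls were rare among all shared CpGs too, so their absence does not set these genes apart. Only 2 CpGs passed the call used for single CpGs (Fisher's exact test, Benjamini-Hochberg adjusted over all shared CpGs, and a change above 25 points). Both were lower in KI, where 1.09% of all shared CpGs were called lower and 0.0474% higher.

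Methylation followed position within the genes in both libraries. Promoter CpGs averaged 3.95% in WT and 4.05% in KI over 495 CpGs, while the 369 CpGs in coding exons averaged 79.0% and 78.7%. The 750 intron CpGs lay between, at 45.8% and 45.5%. The 91 CpGs of untranslated or noncoding exons averaged 67.8% and 67.2%, and the 70 upstream CpGs 68.0% and 65.6%.

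**Figure D1:**
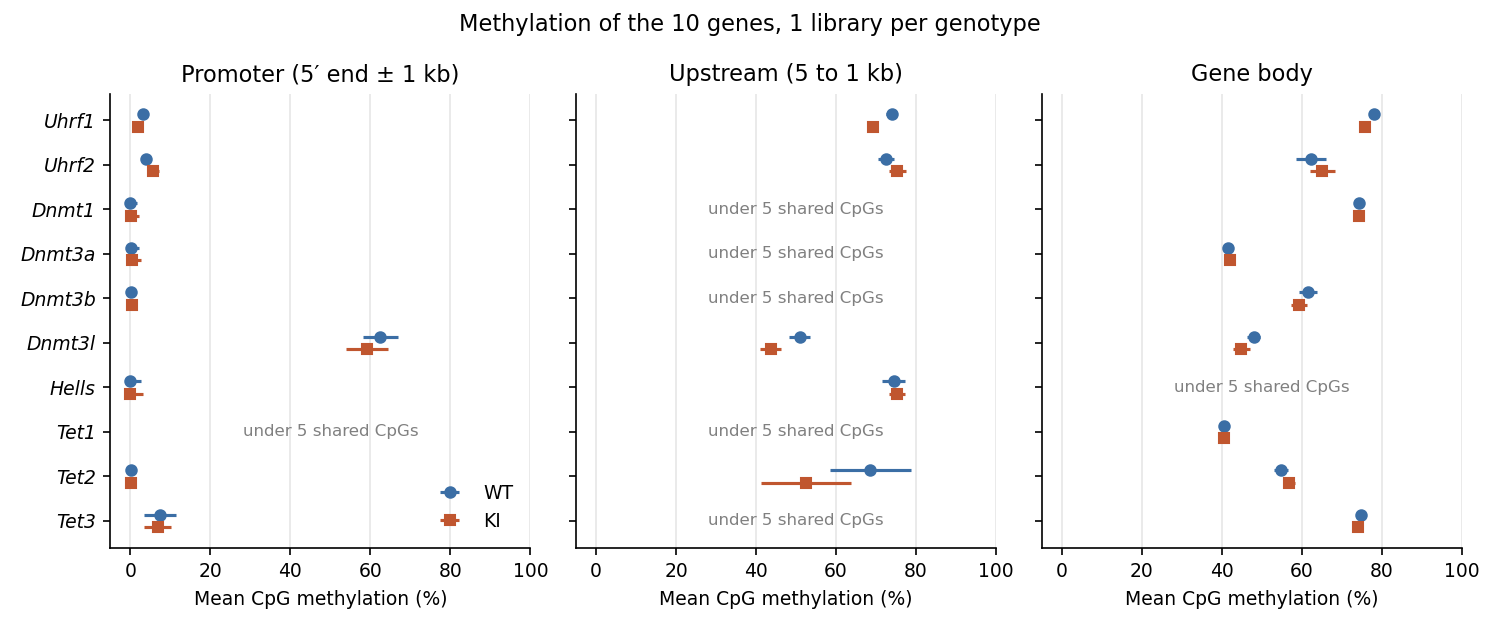
Mean methylation (%, x axis) of the promoter, the stretch from 5 kb to 1 kb upstream and the body of each gene (y axis) in WT (circles) and KI (squares), with 95% intervals from counting error only, drawn no lower than 0. Promoters other than that of Dnmt3l sit at 7.36% or lower in both libraries, and the intervals of WT and KI are apart in the upstream stretches of Uhrf1 and Dnmt3l.

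Promoters, taken as the annotated 5′ end plus and minus 1 kb, were low in 8 of the 9 members measured, in both libraries. Reads here are summed over the CpGs of a promoter. At Dnmt1 none of 762 WT reads and 3 of 911 KI reads were methylated, where a count of 0 allows up to 0.394% in WT. At Hells 0 of 192 WT reads and 0 of 159 KI reads were methylated, which allows up to 1.56% and 1.89%. At Tet2 there was 1 methylated read of 1963 in WT and 2 of 2320 in KI, and at Dnmt3b 11 of 3328 and 8 of 2257. At Dnmt3a 1 of 452 and 1 of 319 reads were methylated. These 5 promoters were thus almost without methylated reads in both libraries. At Hells and Dnmt3a the measured CpGs began 369 and 526 bases past the 5′ end, and at Dnmt3b 236 bases past it. Tet3, with 18 CpGs, stood at 7.36% in WT and 6.81% in KI.

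The exception was Dnmt3l, the germ-cell cofactor, whose promoter averaged 62.5% ± 2.25 in WT and 59.1% ± 2.67 in KI (SE over the reads of 12 CpGs). Its change of -3.40 points had a 95% interval from -10.2 to 3.44. All 12 CpGs lay 523 to 705 bases past the annotated 5′ end, so that end itself was not measured. A promoter was called only where a Cochran-Mantel-Haenszel test stratified by CpG and Fisher's exact test on the summed reads both had an adjusted p under 0.05 and the mean over CpGs moved the same way. By this rule 0 of 9 member promoters were called, beside 7.45% of 16516 promoters called lower and 1.31% called higher. Without adjustment, 1 of the 9 had a p under 0.05 by Fisher's exact test and 2 by the stratified test. The median change was 0 for the members and -0.0531 points for all promoters. The promoter of Tet1 had only 4 shared CpGs at the annotated 5′ end and was not tested.

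Because annotated 5′ ends can miss the start in use, the starts in RefSeq were placed on mm9 by matching their 300-base promoter sequences. All 17 RefSeq starts of the 10 genes were found, and 15 had at least 5 shared CpGs within 1 kb. Of these, 12 were under 10% in both libraries. For Tet1 this added a start 11794 bases inside the annotated 5′ end, in a cluster of 83 CpGs at 0.399% in WT and 0.785% in KI. The 3 measured starts that were not under 10% were 2 of Dnmt3l and the internal start of Dnmt3a described below. Starts of the same gene can share CpGs, as 2 of Dnmt1 share all 44, so the 15 are not separate measurements.

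Uhrf1 (ENSMUSG00000001228.8, mm9 chr17:56442744-56462909, plus strand) had an unmethylated stretch in intron 1, a partly methylated stretch before its 5′ end and a highly methylated body in both libraries. The 5′ end itself was not measured, as no CpG between -504 and 405 bases from it was shared. The 92 CpGs from 405 to 877 bases past the 5′ end, in intron 1, averaged 0.239% in WT and 0.0792% in KI. The 16 CpGs at -783 to -504 bases from it averaged 19.9% in WT and 12.4% in KI, with 7 to 17 reads per CpG in WT and 12 to 29 in KI. That difference of -7.48 points had an interval from -14.7 to -0.222 and the 1 kb window that holds 12 of these CpGs was not called (17.2% and 13.2%, adjusted p = 0.624 by Fisher's exact test and 0.561 by the stratified test). The promoter as a whole went from 3.15% to 1.91% and did not pass (adjusted p = 1 by Fisher's exact test).

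The body of Uhrf1 averaged 78.0% ± 0.579 in WT and 75.7% ± 0.607 in KI (SE over the reads of 96 CpGs), which is -2.31 points. In KI 56 of the 96 CpGs were lower and 33 higher. It passed the stratified test (adjusted p = 1.11e-05) but not Fisher's exact test on summed reads (adjusted p = 0.508), so it was not called. Both tests passed with CpGs inside CCGG left out, at 90.7% in WT and 88.7% in KI, and with the reads of each CpG thinned to the lower coverage of the libraries. The body was not called with strands summed (-1.48 points) or with each read counted once and CCGG left out (adjusted p = 0.629 by Fisher's exact test and 0.151 by the stratified test). Weighted by reads, its change was -0.708 points. Counting each read once is an approximation throughout. Each fragment and strand entered with the median coverage and mean level of its CpGs, turned into whole reads.

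The stretch upstream of Uhrf1 was lower in KI on both strands. Its 16 CpGs, at -3135 to -2774 bases from the 5′ end, averaged 73.9% in WT and 69.1% in KI, and the change of -4.72 points had an interval from -6.66 to -2.79. It was called (adjusted p = 7.67e-05 by Fisher's exact test and 3.36e-07 by the stratified test), and it stayed called under every alternative run for it. Among all genes, 17.1% of 9076 upstream stretches were called lower and 1.21% higher. The first part of the fragment is shown because the loss begins in it. It is the plus strand of mm9 with CpGs in capitals, and it lies in the coding part of the first exon of Arrdc5, a gene on the other strand:
Uhrf1 upstream chr17:56439608-56439666: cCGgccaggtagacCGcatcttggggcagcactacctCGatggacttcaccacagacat

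The sites of this fragment did not move alike. The last CpG of the printed stretch, at base 56439645, went from 70.4% of 81 reads in WT to 51.7% of 87 in KI on the plus strand. On the minus strand it went from 73.5% of 339 reads to 57.1% of 268. The next sites, at 56439678 and 56439705, were also lower on both strands, with changes from -13.4 to -6.22 points. The site at 56439622, in the middle of the printed stretch, read 93.8% in WT and 95.4% in KI on the plus strand, and 94.99% and 93.3% on the minus strand. At the CCGG end of the fragment, base 56439610 on the minus strand read 1.72% in WT and 1.82% in KI while its partner base read 95.1% and 92.05%. Near-0 values on one strand of a cut site recurred across fragments in both libraries, so levels are also given without CCGG.

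The mutated codons themselves were not covered. They are the capitals in the start of exon 5, on the plus strand, where the KI allele carries the substitution:
Uhrf1 exon 5 chr17:56451477-56451536: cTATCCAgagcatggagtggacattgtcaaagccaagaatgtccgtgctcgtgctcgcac
Exon 5 has 10 CpG sites and no CCGG site, and neither library listed a CpG in it. The nearest shared CpG lay 1025 bases past the codons, and none was shared over the 8887 bases around them.

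From exon 3 to exon 11, the span of the targeting vector, 87 CpG positions were listed in either library and 12 were shared, all of them in exon 7. The summed coverage was 1670 in WT and 1344 in KI. Scaled by the total coverage of the libraries, the KI to WT ratio was 0.893. Its 95% Wilson interval, from counting error only, was 0.831 to 0.960. That interval counts a read again at each CpG it covers, so it is too narrow. Whether the ratio differs from 1 was not tested. The ratio was 1.12 from 5 kb upstream to exon 3 and 1.26 after exon 11. Across 151828 windows of 1 kb in the genome, the middle range from the 25th to the 75th percentile ran from 0.880 to 1.24, which includes the ratio of the targeted span, and 3.28% of windows differed by 2-fold or more. None of the 10 windows of Uhrf1 did, with ratios from 0.896 to 1.61. Nearly all of the depth in the targeted span came from 1 fragment in exon 7. Outside exon 7 the span had 96 reads in WT and 25 in KI, summed over CpGs, which the ratio of the whole span does not show.

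That fragment in exon 7 is shown because it carries all the shared CpGs of the targeted span (plus strand, CpGs in capitals):
Uhrf1 exon 7 chr17:56452507-56452670: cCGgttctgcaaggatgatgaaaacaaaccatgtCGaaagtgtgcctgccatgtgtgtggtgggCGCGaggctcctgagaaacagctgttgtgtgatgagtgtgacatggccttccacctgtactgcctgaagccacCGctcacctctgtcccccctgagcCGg
Outside its CCGG ends, its 8 CpGs averaged 95.5% in WT and 93.2% in KI, with 96 to 165 reads in WT and 87 to 130 in KI. The lowest level among the 8 was 90.8% in WT and 89.2% in KI, at different CpGs. Of the other positions in the span, 56 were listed only in WT with at most 3 reads and 15 only in KI with at most 2. Over the genome, 9172045 CpG positions were listed in either library, with 7231934 listed in WT and 6452685 in KI. Positions listed only in WT or only in KI were thus common elsewhere too, with more of them in WT, but less unevenly than in the span. Whether this difference in split exceeds counting error was not tested.

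**Figure D2:**
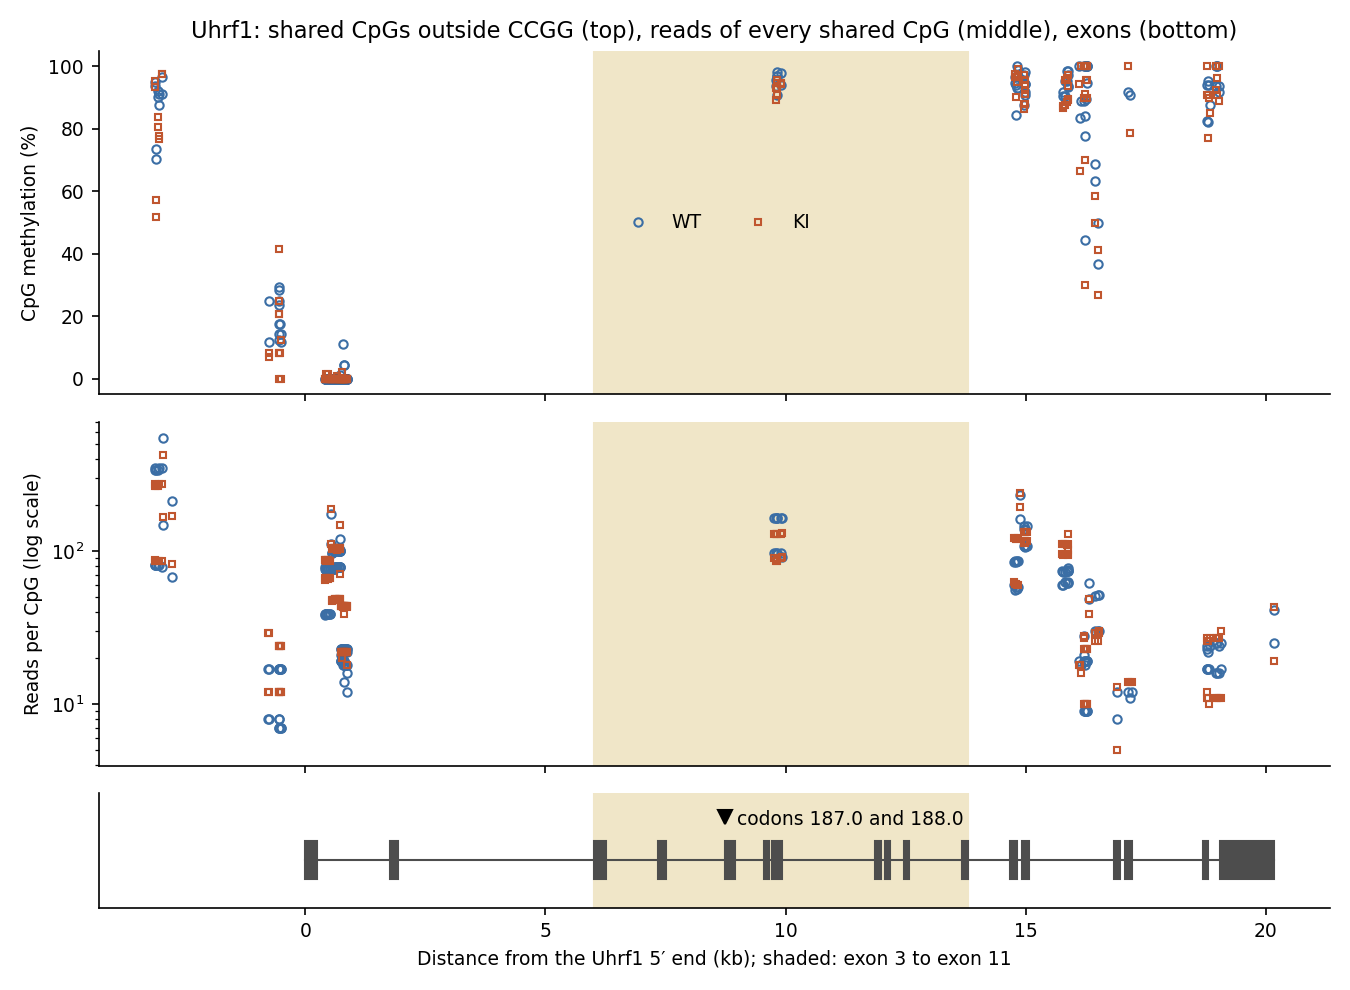
Methylation of the shared CpGs of Uhrf1 outside CCGG sites (%, top), the reads of each shared CpG on a log scale (middle) and the 17 exons (bottom), against the distance from the 5′ end in kb, for WT (circles) and KI (squares). The shaded span from exon 3 to exon 11 holds 1 cluster of shared CpGs, in exon 7, and none near codons 187 and 188.

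Uhrf2 (ENSMUSG00000024817.7, chr19:30105003-30168212, plus strand), the paralog of Uhrf1, was the member with the largest mean change above 0 over its region. Its promoter, with 136 CpGs, read 3.88% ± 0.646 in WT and 5.62% ± 0.804 in KI. The summed reads differed (45 of 2716 and 82 of 2759 methylated, adjusted p = 0.0142 by Fisher's exact test), but the stratified test did not pass (adjusted p = 0.121), and with at least 20 reads per CpG the change was 0.0275 points. The upstream stretch stood at 72.5% and 75.3%, and the body, with 17 CpGs, at 62.3% and 65.1%. Neither was called, and the body change of 2.76 points was 0.491 with at least 10 reads per CpG and 0.333 weighted by reads.

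Dnmt1 (ENSMUSG00000004099.8, chr9:20711650-20757317, minus strand), the partner that Uhrf1 brings to the fork, was not called in its body. The 153 body CpGs averaged 74.3% ± 0.531 in WT and 74.4% ± 0.531 in KI, and the difference of 0.159 points had an interval from -1.31 to 1.63. By contrast, an intronic run of 13 CpGs at 20725972 to 20726460 read 52.1% in WT and 64.8% in KI. Its interval ran from 6.11 to 19.5 points, but the 1 kb window that holds 9 of these CpGs was not called (adjusted p = 0.195 by Fisher's exact test). Outside CCGG, most of the rise was on the thinly read minus strand. There 4 CpGs rose by 24.9 points, with 9 to 26 reads in WT and 13 to 30 in KI. On the plus strand 3 CpGs rose by 4.13 points, with 54 to 65 reads in WT and 41 to 59 in KI. One CpG of Dnmt1 was called lower, at base 20735098 in an intron, with 15 of 23 reads methylated in WT and 5 of 28 in KI (adjusted p = 0.0434 by Fisher's exact test). These are 65.2% (95% Wilson interval 44.9 to 81.2) and 17.9% (7.88 to 35.6). The facing cytosine on the plus strand read 41.2% of 114 reads and 30.1% of 83. The site lies inside CCGG, and it was not called when the reads of both strands were summed.

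Dnmt3a (ENSMUSG00000020661.9, chr12:3806007-3914443, plus strand) held the largest rise at a start site of any member. Its first promoter was unmethylated, while an internal start that lies 85737 bases inside the gene read 10.04% ± 0.767 in WT and 18.7% ± 1.17 in KI over 42 CpGs. This is the start of the shorter Dnmt3a-005 and Dnmt3a-201 transcripts, at bases 3891728 and 3891744, and both starts share all 42 CpGs. In KI 31 of these CpGs were higher and 5 lower. The start was called higher (adjusted p = 3.48e-07 by Fisher's exact test and 1.57e-08 by the stratified test), beside 1.25% of 28867 start sites called higher and 5.99% called lower. Of all start sites, 120 rose by at least as much. With each read of a fragment counted once by the approximation given above, and CCGG left out, both adjusted p-values were 1 while the change was 9.84 points. This alternative was chosen after seeing the data.

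Reads at this start come from 2 fragments. The first, just before the start, is shown because 19 of its 24 shared CpGs outside CCGG were higher in KI (plus strand, CpGs in capitals):
Dnmt3a before the internal start chr12:3891340-3891579: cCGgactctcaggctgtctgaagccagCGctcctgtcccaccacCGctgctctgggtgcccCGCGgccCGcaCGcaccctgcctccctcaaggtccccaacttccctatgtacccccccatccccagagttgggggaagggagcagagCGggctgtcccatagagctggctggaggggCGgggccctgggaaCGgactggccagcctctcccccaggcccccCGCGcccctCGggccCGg
On its minus strand, outside CCGG, 12 CpGs averaged 7.41% in WT with 35 to 36 reads each and 20.6% in KI with 38 to 43 reads, and 11 of the 12 were higher. On its plus strand, with 10 to 12 reads in WT and 8 to 9 in KI, WT read 0 at all 12 CpGs and KI averaged 9.38%. The largest single rise was at base 3891533, from 2 of 36 reads to 14 of 41, or 5.56% to 34.1%. In the fragment after the start, 10 CpGs outside CCGG averaged 28.0% in WT and 34.4% in KI, and 8 of them were higher. Both fragments and both strands thus moved the same way, with reads that span several CpGs at a time.

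**Figure D3:**
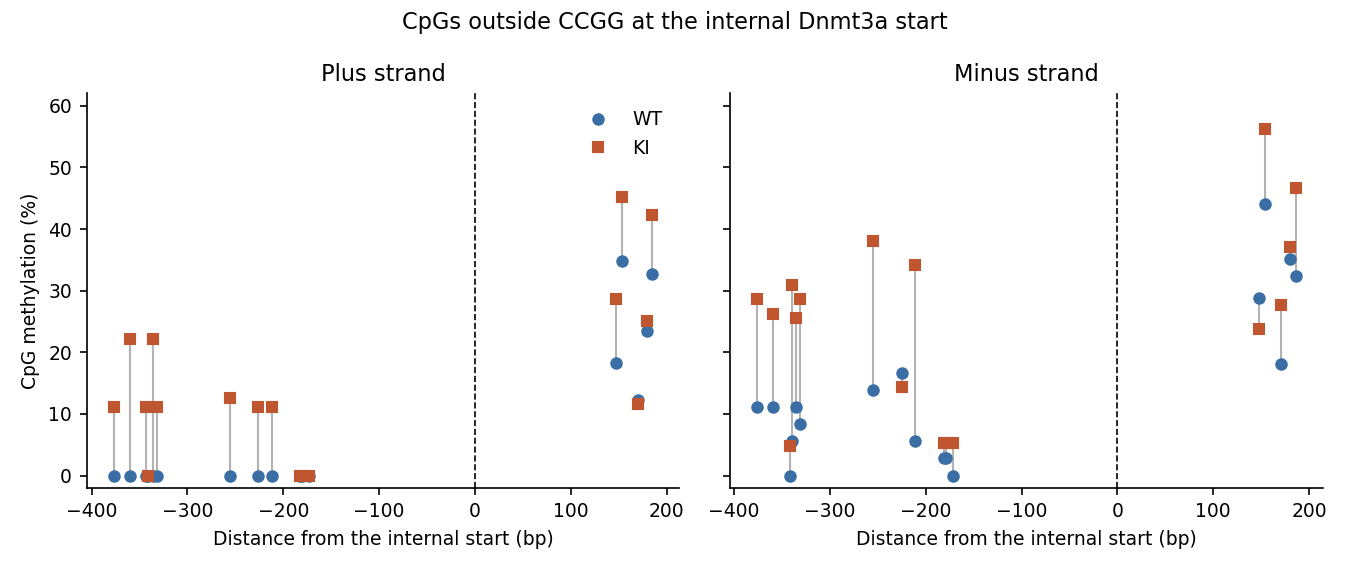
Methylation (%) of single CpGs outside CCGG at the internal Dnmt3a start, against the distance from the start in bp, on the plus strand (left) and the minus strand (right), with WT as circles, KI as squares and a line joining each pair. Before the start, 8 of 12 plus-strand CpGs and 11 of 12 minus-strand CpGs were higher in KI.

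The body of Dnmt3a as a whole averaged 41.7% in WT and 42.0% in KI over 242 CpGs and was not called. With CpGs inside CCGG left out it was called higher, at 43.6% and 45.4%. Within it, 1 CpG was called lower, at base 3902402 on the minus strand, in coding exon 18 of Dnmt3a-001. It read 101 of 126 methylated in WT, or 80.2% (95% Wilson interval 72.3 to 86.2), and 37 of 74 in KI, or 50% (38.9 to 61.1), with an adjusted p of 0.00141 by Fisher's exact test. It was called under every alternative tried for it. The facing cytosine, with 12 and 10 reads, read 66.7% in WT and 80% in KI, and this difference did not pass (adjusted p = 1 by Fisher's exact test). The called CpGs are shown in capitals with 20 bases on each side, Dnmt3a on the plus strand and Dnmt1 on the minus strand, each the strand of its gene:
Dnmt3a chr12:3902382-3902422: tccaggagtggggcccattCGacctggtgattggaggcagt
Dnmt1 chr9:20735078-20735118: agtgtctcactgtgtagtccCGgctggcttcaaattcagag

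Dnmt3b (ENSMUSG00000027478.9, chr2:153475186-153513466, plus strand), the other de novo enzyme, had a body of 57 CpGs at 61.6% in WT and 59.3% in KI. Its interval of change, from -5.29 to 0.647 points, includes 0, and with at least 20 reads per CpG the change was 0.966 points. Neither its promoter nor its body was called. Hells (ENSMUSG00000025001.5, chr19:39005405-39045541, plus strand) was read at its unmethylated promoter and at 23 upstream CpGs that averaged 74.4% and 75.3%, and its body had 4 shared CpGs, too few to be tested. None of its measured features was called.

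Dnmt3l (ENSMUSG00000000730.7, chr10:77504692-77526367, plus strand) was the member with the largest mean change below 0, at -3.83 points with an interval from -6.07 to -1.60. Over its 63 shared CpGs, 39 were lower in KI and 14 higher. The upstream stretch fell from 50.9% to 43.7% over 10 CpGs, of which 9 were lower. It was called (adjusted p = 0.00802 by Fisher's exact test and 0.000176 by the stratified test). With the reads of each CpG thinned to equal coverage the change was -6.00 points and was not called (adjusted p = 0.129 by Fisher's exact test and 0.00166 by the stratified test). With strands summed it was called at -3.74 points. All but 2 of the 10 CpGs lie in CCGG. This stretch and the promoter overlap the neighbouring gene Aire. The body averaged 48.0% in WT and 44.9% in KI with each CpG weighted alike, and was 5.22 points higher in KI with CpGs weighted by reads, so its direction depends on the weighting. A run of 15 intron CpGs stood at 4.97% and 4.48%, and a run of 14 CpGs further in stood at 69.3% and 61.3%.

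Tet1 (ENSMUSG00000047146.8, chr10:62267318-62361866, minus strand) had a cluster of unmethylated CpGs in an intron and a highly methylated coding region. Its body mean was 40.6% in both libraries, with a change of -0.0347 points over 284 CpGs, yet it was called lower on summed reads, 47.8% in WT and 44.8% in KI (adjusted p = 3.18e-08 by Fisher's exact test and 0.000355 by the stratified test). It was the only one of 9 member bodies called, beside 34.8% of 15923 bodies called lower and 0.785% called higher. With the reads of each CpG thinned to equal coverage, the change was 0.116 points and the call was lost, while the body of Uhrf1 was called.

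Within Tet1, the fragment near the start of the Tet1-201 transcript was lower in KI on both strands. That start is the first coding base, at 62342762 inside exon 2 of Tet1-001, so the fragment below is coding sequence, shown on the minus strand with CpGs in capitals:
Tet1 chr10:62342336-62342536: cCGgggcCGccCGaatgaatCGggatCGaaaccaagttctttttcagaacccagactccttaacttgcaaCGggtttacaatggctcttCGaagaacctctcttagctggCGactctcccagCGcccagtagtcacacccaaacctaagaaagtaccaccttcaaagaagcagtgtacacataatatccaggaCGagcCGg
Its 18 CpGs outside CCGG averaged 95.3% in WT and 91.4% in KI, with 118 to 134 reads each in WT and 112 to 119 in KI, and 15 of them were lower in KI. The site at 62342465 fell most, from 95.8% of 119 reads to 75.9% of 116 on the plus strand, while the facing cytosine read 91.8% and 85.6%. Over 24 CpGs within 1 kb the start went from 83.3% to 80.5% and was called lower (adjusted p = 0.00955 by Fisher's exact test and 3.94e-06 by the stratified test), but not with each read counted once and CCGG left out (both adjusted p = 1, with a change of -3.96 points). Of the 28 start sites tested in the 10 genes, this one was called lower, and the pair at the internal start of Dnmt3a was called higher. A run of 30 CpGs further in the Tet1 body was low and did not fall, at 12.0% in WT and 15.6% in KI.

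Tet2 (ENSMUSG00000040943.7, chr3:133126643-133207354, minus strand) was not called in any feature. Its body of 60 CpGs averaged 54.8% in WT and 56.9% in KI, and the change of 2.11 points dropped to 0.0136 when at least 10 reads per CpG were required. Its upstream stretch, with 5 CpGs of 42 and 40 reads in all, read 68.5% and 52.5%, and its interval of change ran from -31.2 to -0.784 points.

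Tet3 (ENSMUSG00000034832.8, chr6:83312367-83391672, minus strand) had the highest summed coverage of the members. Its body of 256 CpGs averaged 74.8% ± 0.344 in WT and 74.2% ± 0.332 in KI and was not called, with 124 CpGs lower and 121 higher. One window of 1 kb inside it, in an intron, was the only one of 93 member windows called (a window also had to change by at least 10 points), beside 8.87% of 151828 windows called lower and 0.209% called higher. Its 8 CpGs, on 4 sites shown here on the minus strand in capitals, fell from 63.4% to 38.2%:
Tet3 chr6:83360188-83360262: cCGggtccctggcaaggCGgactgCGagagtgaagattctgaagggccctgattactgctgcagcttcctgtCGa
All 8 were lower in KI, with changes from -39.3 to -11.1 points. The depth was low, with 8 to 12 reads per CpG in WT and 10 to 14 in KI. The window passed both tests (adjusted p = 0.00542 by Fisher's exact test and 0.000752 by the stratified test) and failed both with each read counted once and CCGG left out, where the change was -25.1 points (adjusted p = 0.872 by Fisher's exact test and 0.706 by the stratified test). With at least 10 reads required, fewer than 5 of its CpGs were left.

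Set beside all features of the same kind, the members' bodies and windows changed little. The median change was -0.0347 points for the 9 bodies and -1.98 for all bodies, and -0.459 points for the 93 windows and -2.78 for all windows. For the 5 upstream stretches measured, of which 2 were called lower (Uhrf1 and Dnmt3l), it was -4.72 points, beside -1.68 for all. In depth, 3 of the 93 windows differed by 2-fold or more, beside 3.28% of all windows. Each was higher in KI: 2 separate windows in Dnmt3a at ratios of 2.56 and 3.57, and 1 at the far upstream end of Tet1 at 2.15. Their methylation was not called.

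**Figure D4:**
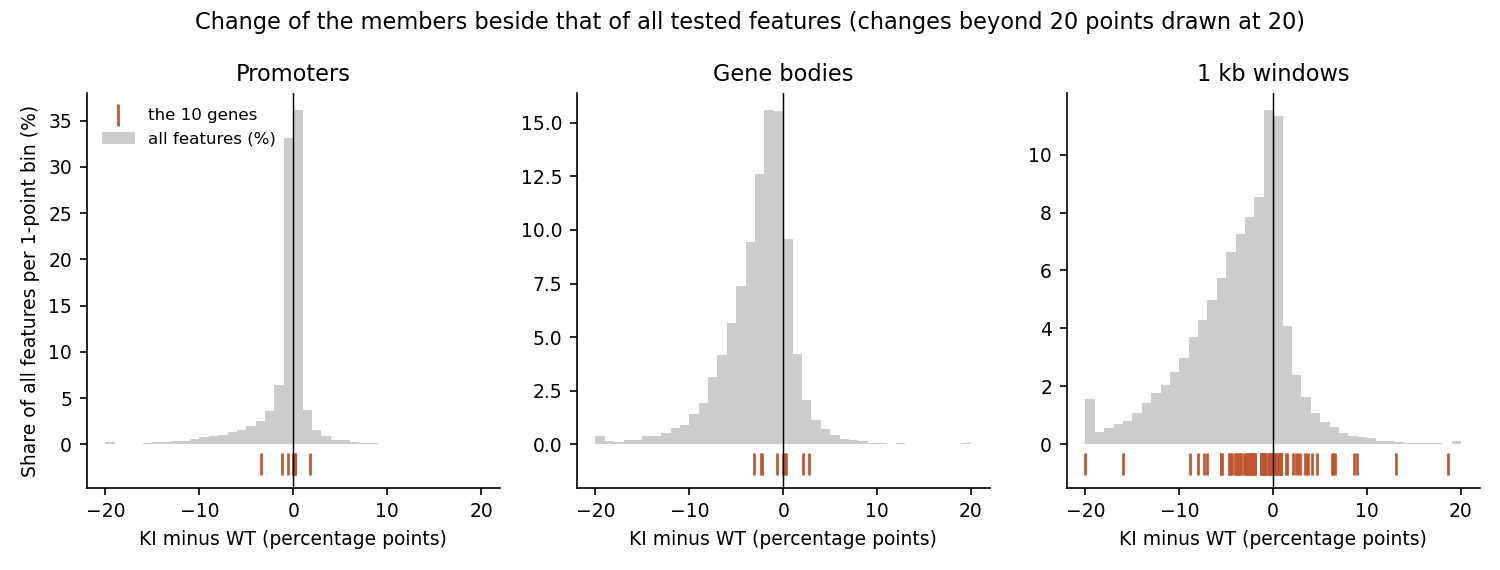
Change in methylation (KI minus WT, percentage points) of all tested promoters, bodies and 1 kb windows as the share of features per bin (grey bars, %), with the members as ticks below. The member bodies lie between -3.15 and 2.76 points, on both sides of 0.

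The 10 genes held 85 runs of at least 5 shared CpGs with gaps of at most 300 bp. In KI 55 runs were lower and 29 higher, and 73 lay within 5 points of their WT level. The changes ran from -21.1 points, at the Tet3 intron, to 12.8 points, at the Dnmt1 intron. Of the 85 runs, 16 were under 20% in WT.

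**Figure D5:**
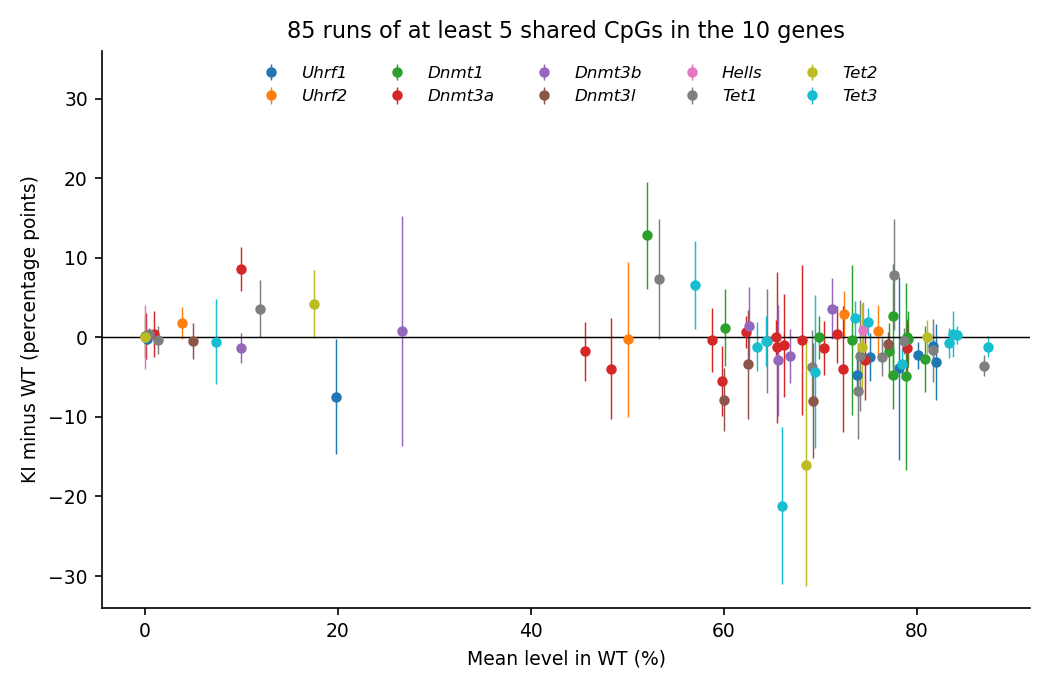
Change (KI minus WT, percentage points, y axis) against the WT level (%, x axis) for the 85 runs of at least 5 shared CpGs, coloured by gene, with 95% intervals from counting error only. Runs near 0% stay near 0, and the lowest and highest changes are the Tet3 run at -21.1 and the Dnmt1 run at 12.8 points.

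A list of 35 genes that work beside the members (maintenance partners, readers, demethylation factors, genes of the methyl donor and germline factors) was read the same way. At promoters 27 were measured, and 3 were called lower and 0 higher, beside 7.45% and 1.31% of all promoters. These were Dmap1, a Dnmt1-associated protein, from 10.1% to 5.56%, Gnmt, the liver glycine N-methyltransferase that uses up S-adenosylmethionine, from 14.6% to 10.1%, and Zbtb38, a methyl-CpG binding zinc finger protein, from 66.5% to 60.1%. The Zbtb38 change of -6.40 points was -11.4 with at least 20 reads per CpG and -14.2 with strands summed. Neither the Zbtb38 nor the Gnmt promoter was called with each read counted once. Dmap1 had the highest adjusted p of the 3, at 0.0471 by the stratified test. It was not called with at least 10 or 20 reads per CpG, with strands summed, without CCGG, with equal reads or with each read counted once. At bodies 27 were measured, and 2 were called lower and 0 higher, beside 34.8% and 0.785% of all bodies. These were Zbtb38 from 56.1% to 55.2% and Mbd3 from 78.2% to 75.7%. Mbd3 had an adjusted p of 0.0441 by Fisher's exact test and was not called with strands summed, without CCGG, with equal reads or with each read counted once. By group, the promoter calls were 1 of 6 maintenance partners, 1 of 6 readers, 0 of 5 demethylation genes, 1 of 7 genes of the methyl donor and cofactors, and 0 of 3 germline factors. The body calls were 2 of 4 readers and 0 of 7, 5, 8 and 3 in the other groups. Median changes over the list were 0 at promoters and -0.758 points at bodies.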

How the data were processed

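Reads were mapped to mm9 with Bismark, and only unique alignments were kept. Per the labels and the methods, the authors deposited, for each CpG cytosine, a count of covering reads and the percent of them that were methylated, from which whole methylated reads were recovered. Trimming and duplicate handling are not given in the sources used here. Only cytosines read 5 or more times in each library were used. CCGG sites came from the mm9 sequence, genes from GENCODE vM1 and start sequences from RefSeq. Features needed at least 5 shared CpGs. Two-sided Fisher's exact and Cochran-Mantel-Haenszel tests were adjusted by Benjamini-Hochberg over all features of a kind. Reads span several CpGs and may be PCR copies, so these p-values are too small, and intervals and the limits for a count of 0 (3 counts) cover counting error only. Named were all 10 genes, every called CpG and window (up to 20 each) and listed genes called by both tests. CpG runs and fragments shown beside these were chosen after their values were seen. Members and lists were chosen with earlier results of these data known. The alternatives changed the read minimum, strands, CCGG sites, depth, weights, promoter width and test. Python 3.11.15, numpy 2.4.6 and scipy 1.17.1 were used, and the tests were tried on simulated data.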

Additional observations from a re-analysis of the deposited data

How the results depend on the processing

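The alternatives required at least 10 or 20 reads, summed the strands, left out CCGG or thinned each CpG to equal reads. Others used a chi-square test, took promoters within 500 bp or weighted CpGs by reads. The last, chosen after seeing the data, counted each read of a fragment once, by approximation, with CCGG left out. Of the recomputed counts of calls and depth ratios, 32 stayed within 1.5 times the reported value or within its interval, 12 counts were lower and 3 higher. Member CpGs called went from 2 to 4 (2 lower, 2 higher, the added ones in Dnmt3a) with at least 20 reads and to 1 without CCGG. With strands summed 2 were called, but not the same ones. The Dnmt1 CpG was lost, and the Dnmt3a site at 3891532 was called higher, from 4.26% in WT to 30% in KI. Upstream stretches called went from 2 to 1 without CCGG, with equal reads and with each read counted once, and the 1 called was Uhrf1 in each. Dnmt3l upstream had too few CpGs to be tested where CCGG was left out. Bodies called went from 1 to 3 without CCGG (Tet1 and Uhrf1 lower, Dnmt3a higher) and to 0 with each read counted once. With equal reads 1 body was called, but it was Uhrf1 and not Tet1. Start sites went from 3 to 0 with each read counted once. Windows went from 1 to 2 without CCGG, the added one in Dnmt3l, and to 0 with at least 10 or 20 reads, with strands summed and with each read counted once. The Tet3 window had under 5 CpGs with at least 10 or 20 reads and with strands summed. Pathway calls went from 5 to 3 with strands summed and to 2 with each read counted once, Zbtb38 and Apobec1 at their bodies, of which Apobec1 was not among the 5. Pathway bodies called higher were Gnmt with at least 20 reads and Lig1 without CCGG. The body of Zbtb4, also not among the 5, was called lower with at least 10 or 20 reads, without CCGG and with equal reads. Its change there ran from -3.65 to -1.59 points. Member promoters stayed at 0 called throughout. The Tet1 body change turned from -0.0347 to 0.116 points with equal reads. For member promoters and bodies not called, 90 of 116 recomputed changes stayed within 1 SE of the reported change and uncalled. The depth ratio over the targeted exons was 0.930 over shared CpGs, 0.869 scaled by windows and 0.927 scaled by chromosome 17. No paired analysis was possible because there is 1 library per genotype, and no library could be left out for the same reason. At the depth of the Tet3 window, with 8 to 14 reads per CpG, a change of -39.3 points at a single CpG did not pass (adjusted p = 0.548 by Fisher's exact test). Beyond fewer sites or reads tested, the cause of these shifts was not tested.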
